A study of Mus musculus with 12 samples.

Results

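The lungs of mice lacking GADD45 (labelled GADD45-/- in the titles and GADD-/- in other labels; the series title names GADD45a) were compared after ventilator-induced lung injury, VILI, with lungs of the same genotype labelled SB, across all genes. The comparison rests on 6 of the 12 expression arrays of the study, 3 labelled GADD45-/- -VILI and 3 labelled GADD45-/- - SB, chosen by those titles. VILI mice were ventilated at a tidal volume of 30 ml/kg and 65 breaths per minute for 4 hours, and all mice were 8 to 12 weeks old. The other 6 arrays are wild type lungs, 3 SB and 3 VILI, and serve here for the shared estimate of spread and for the comparison with wild type. What SB stands for is not spelled out in the labels, which call every sample a control animal. The design counts 3 mice in each group. The sources used here give no strain, sex, processing batch or construction of the knockout allele. Nothing in the labels limits the deletion to a cell type, and SB and VILI knockout lungs both carry it. The array reads RNA from pieces of lung that hold many cell types, so more or fewer cells of a type and more or less RNA per cell cannot be told apart. The p-values below measure the spread between these samples.

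Gadd45a codes for a small stress-induced protein that acts in growth arrest, DNA repair and stress kinase signalling, and the study's title asks about its role, and that of Akt signalling, in this injury. Ventilation with large breaths overstretches the alveolar wall. Stretched epithelium, endothelium and macrophages release chemokines and interleukins, neutrophils enter the airspaces, and the capillary barrier becomes leaky. Antioxidant, metal-binding and wound-response genes of the epithelium are well-known parts of the tissue reaction.

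Gadd45a itself was low on all 6 knockout arrays. Its log2 values were 4.87, 6.15 and 4.58 in SB and 5.87, 6.02 and 5.36 in VILI, while the wild type values were 8.62, 9.51 and 8.69 in SB and 9.75, 9.77 and 10.33 in VILI. No knockout array reached the lowest wild type array. The knockout groups overlapped, and their difference of 0.55 ± 0.38 (log2, SE) did not pass the threshold (limma adjusted p = 0.433). Where this probe set lies relative to the deleted part of the gene was not tested.

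The lung identity of the knockout samples was clear from the abundant epithelial transcripts. Surfactant protein C, Sftpc, lay between 15.12 and 15.55 and the club cell protein Scgb1a1 between 15.52 and 15.86 on the 6 arrays, among the brightest genes. Over the 10996 genes tested, the 6 arrays correlated with each other at Pearson r from 0.944 to 0.986, values that share probe affinities as well as tissue. Both arrays numbered 3 stood apart for B cell genes. The list of B cell and plasma cell genes averaged 10.13 on SB replicate 3 and 10.76 on VILI replicate 3, against 7.97 to 8.58 on the other 4 knockout arrays, and 0 of its 20 tested members passed the threshold. Cell division genes averaged 8.70 on VILI replicate 3 and 7.35 to 7.81 on the other 5, and fat genes ranged from 7.65 to 10.17 without separating the groups. The part of these cell mixtures in the results was not tested, and counts without both arrays numbered 3 are given beside the main gene groups.

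Of 10996 genes tested, 491 (4.47%) differed between VILI and SB knockout lungs at a limma adjusted p under 0.05. The higher genes numbered 304 (2.76%) and the lower genes 187 (1.7%). For each of the 491, the 3 VILI arrays all lay on one side of the 3 SB arrays. Such separation was common at large, with all VILI arrays above all SB arrays for 1422 genes (12.9%) and all below for 1171 (10.6%). The rises were the larger changes: 142 rises and 58 falls reached 2-fold, 49 rises and 1 fall reached 4-fold, and 19 rises and 0 falls reached 8-fold. A fit of only the 6 knockout arrays gave 11 calls, so most of the 491 rest on the spread shared with the wild type arrays. With the wild type arrays in the fit, the number of calls also depended on single arrays. It was 69 without knockout VILI replicate 2, 192 without VILI replicate 3, 182 and 306 without SB replicates 1 and 2, 311 without wild type VILI replicate 2, and 110 without both knockout arrays numbered 3, against 713 without knockout VILI replicate 1. Among the 139 genes past the threshold that were named by the fixed rule, 48 passed it in each of the 12 fits that left out 1 array, and none changed sign in any alternative. Beside each group of genes, the arrays whose loss ended the most calls are given. Replicates there are knockout arrays unless wild type is named. The gene lists below were chosen with earlier results of these data known. Their shares of calls are descriptions, to be read beside 4.47% over all genes. With only the 6 knockout arrays, the neutrophil list had 3 calls and the SoxF list 2. The CXC, interleukin 6, keratin and endothelial lists had 1 each. The interleukin 1, NF-kB, antioxidant, metallothionein and ribosome lists had 0.

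**Figure D1:**
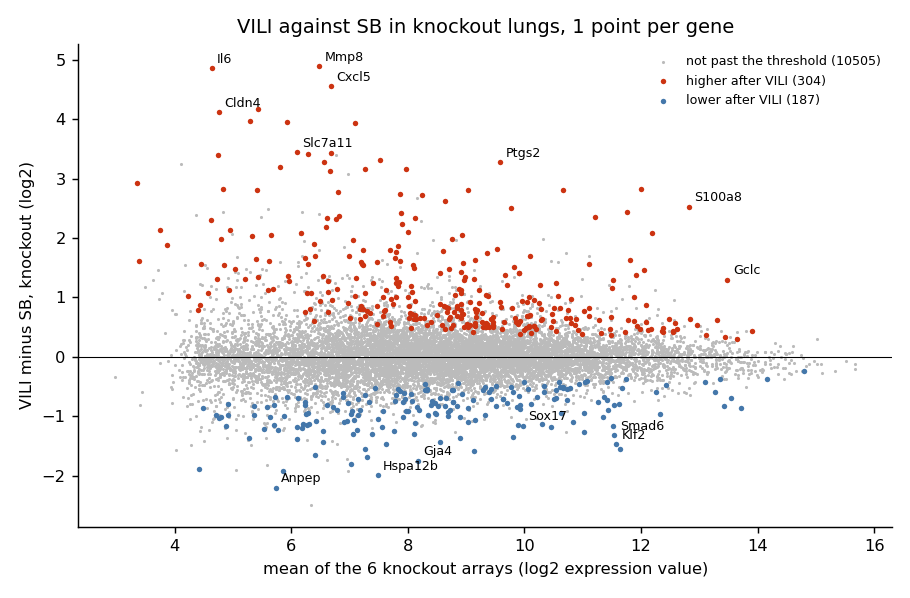
Log2 difference of VILI minus SB in knockout lungs (vertical axis) against the mean log2 expression value of the 6 knockout arrays (horizontal axis), 1 point per gene. The 304 higher genes (red) reach 4.90 for Mmp8 and 4.86 for Il6, the 187 lower genes (blue) reach -2.20 for Anpep, and 10505 genes (grey) did not pass the threshold.

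Chemokines of the CXC class, some of which draw neutrophils, included several of the widest rises in knockout lungs. Cxcl1 read 3.01, 4.24 and 4.58 in SB and 7.81, 8.36 and 7.50 in VILI. Every VILI array was far above every SB array, a rise of 3.94 ± 0.37 (log2, SE), about 15.4-fold, with an adjusted p of 0.00155. Cxcl2, its neighbour on the chromosome and a ligand of the same receptor, went from 2.81, 4.45 and 2.62 to 6.57, 7.22 and 8.02, a rise of 3.98 ± 0.55 (adjusted p = 0.00596). Cxcl5, an epithelial chemokine for neutrophils, rose by 4.55 ± 0.67 (adjusted p = 0.00788), although SB replicate 3 at 6.20 was well above the other SB arrays at 3.50 and 3.48. The SB means of Cxcl1, Cxcl2 and Cxcl5 lay under the median of the arrays, where the signal compresses and a fold is approximate.

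The promoters of Cxcl1, Cxcl2 and Il6 are shown because these genes rose together and are textbook targets of NF-kB, the transcription factor of inflammatory signalling. Each sequence is the 250 bases before the annotated start, from RefSeq (GRCm38.p6), written 5′ to 3′ on the strand of the gene. Capitals mark matches, on either strand, to GGG, any 2 bases and TTTCC in a row. The windows are chr5:90890995-90891244 (plus strand) for Cxcl1, chr5:90903649-90903898 (plus strand) for Cxcl2 and chr5:30012864-30013113 (plus strand) for Il6.
Cxcl1: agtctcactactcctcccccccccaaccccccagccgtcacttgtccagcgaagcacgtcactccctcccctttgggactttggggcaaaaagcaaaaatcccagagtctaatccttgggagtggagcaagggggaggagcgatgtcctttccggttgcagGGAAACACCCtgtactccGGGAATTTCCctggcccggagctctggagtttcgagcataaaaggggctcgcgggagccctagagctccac
Cxcl2: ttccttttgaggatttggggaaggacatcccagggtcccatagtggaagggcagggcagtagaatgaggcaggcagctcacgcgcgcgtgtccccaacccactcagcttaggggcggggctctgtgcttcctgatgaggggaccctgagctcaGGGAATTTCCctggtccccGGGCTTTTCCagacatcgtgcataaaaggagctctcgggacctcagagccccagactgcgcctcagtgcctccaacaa
Il6: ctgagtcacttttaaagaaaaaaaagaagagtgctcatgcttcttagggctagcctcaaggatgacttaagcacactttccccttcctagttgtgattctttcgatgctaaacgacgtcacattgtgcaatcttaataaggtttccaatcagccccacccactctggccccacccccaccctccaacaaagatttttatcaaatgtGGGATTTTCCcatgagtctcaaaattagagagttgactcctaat
Cxcl1 and Cxcl2 each hold 2 matches, and 8 of the 32851 windows of this length (0.0244%) hold at least as many. Il6 holds 1. At least 1 match was present in 1.41% of all windows. Counted by gene, 151 of the 8907 tested genes with a window (1.7%) had one, as did 8 of 246 higher genes (3.25%) and 0 of 143 lower genes. A match describes the letters only.

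In the CXC list as a whole, 21 of 22 listed genes were on the array, 17 passed the filter on low signal, 5 were higher (29.4%) and none was lower, with a median change of 0.57 against 0.0045 over all genes. Such counts describe the members that could be measured, since the filter admits genes that are high in VILI alone. The other 2 called members were Cxcl10 and Cxcr2. Cxcl10, a chemokine for T cells that is induced by interferon, read 5.27, 4.65 and 5.36 in SB and 8.06, 6.40 and 10.19 in VILI, the widest spread of the group. Its rise of 3.12 ± 0.72 (adjusted p = 0.0341) was lost without knockout SB replicate 1, 2 or 3, VILI replicate 3, or any of the 3 wild type VILI arrays, with adjusted p up to 0.0865. The receptor gene Cxcr2 also rose (3.16 ± 0.51, adjusted p = 0.0108). So did Ccr1 (2.75 ± 0.35, adjusted p = 0.00565), a receptor gene of the CC class. Ccr1 was the only call among 14 tested CC chemokine genes and receptors (7.14%, against 4.47% over all genes). Cxcl1, Cxcl2, Cxcl5, Cxcr2 and Ccr1 stayed past the threshold in each of the 12 fits. Without both arrays numbered 3 the CXC list had 3 calls, and Cxcr2 was at an adjusted p of 0.0563.

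The Il6 transcript rose, as did those of some genes of its family and signalling. Il6 read 2.18, 2.33 and 2.11 in SB, near the floor of the scale, and 5.84, 7.88 and 7.45 in VILI. The groups were wide apart, and the rise was 4.86 ± 0.79 (adjusted p = 0.0108). Stat3, the transcription factor that the receptor activates, moved little but evenly, from 11.42, 11.43 and 11.53 to 11.98, 12.21 and 12.05, a rise of 0.62 ± 0.09 (adjusted p = 0.00596). Socs3, the feedback inhibitor of this receptor, went from 9.93, 10.69 and 9.45 to 11.62, 12.97 and 12.55 (2.36 ± 0.45, adjusted p = 0.0186). The kinase gene Pim1, a Stat3 target, rose by 1.43 ± 0.20, and the oncostatin M receptor gene Osmr by 0.78 ± 0.15. In all, 5 of 17 tested members of the family were higher and none lower, with a list median of 0.17. Stat3 and Pim1 held in each of the 12 fits. Il6, Socs3 and Osmr were lost without VILI replicate 2 (adjusted p = 0.0556 to 0.0857), and the list had 2 calls without both arrays numbered 3.

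Interleukin 1 genes rose on both the ligand and the receptor side. Il1b, the ligand made by myeloid cells, read 7.07, 7.80 and 7.07 in SB and 9.28, 10.71 and 9.83 in VILI, a rise of 2.63 ± 0.45 (adjusted p = 0.0131). Il1r2, the decoy receptor that binds it without signalling, rose by 3.93 ± 0.67 (adjusted p = 0.0128), and the signalling receptor Il1r1 by 0.57 ± 0.12. Myd88, the adaptor shared by interleukin 1 and Toll-like receptors, went from 8.25, 8.45 and 8.24 to 9.34, 10.06 and 9.42 (1.30 ± 0.19, adjusted p = 0.00688). Il18rap, a subunit of the interleukin 18 receptor, and the inflammatory caspase gene Casp4 rose by 2.33 and 1.56. For the receptor antagonist Il1rn the values were 5.23, 5.02 and 4.06 against 5.09, 7.41 and 5.92, overlapping, and the change of 1.37 did not pass (adjusted p = 0.199). Of 19 tested members 6 were higher and none lower, with a median of 0.57. Myd88 alone held in each of the 12 fits, and the other 5 calls were lost without VILI replicate 2 (adjusted p = 0.0561 to 0.107). The list had 1 call without both arrays numbered 3.

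Among NF-kB, TNF and Toll-like receptor genes, 6 of 30 tested members were higher and none lower, with a median of 0.45. Tnfrsf12a, the receptor for the cytokine TWEAK, had the widest rise, from 6.85, 7.47 and 6.32 to 9.65, 10.32 and 8.86 (2.73 ± 0.37, adjusted p = 0.00596), and it held in each of the 12 fits. The atypical nuclear IkB genes Bcl3 and Nfkbiz rose by 2.24 and 1.24, the inhibitor of apoptosis gene Birc3 by 0.91, Tnfaip2 by 1.41 and the TNF receptor gene Tnfrsf1b by 0.86. These 5 calls were lost without VILI replicate 2 (adjusted p = 0.0586 to 0.158), and 5 were lost without SB replicate 1 (up to 0.118). Without both arrays numbered 3 the list had 1 call. The classical feedback genes did not follow. Nfkbia, which codes for the inhibitor of NF-kB, read 14.53, 14.54 and 14.54 in SB and 14.37, 14.29 and 14.38 in VILI, slightly lower in every VILI lung, with a change of -0.19 that did not pass (adjusted p = 0.134). Tnfaip3, a ubiquitin-editing inhibitor of the same pathway, overlapped between groups (0.06, adjusted p = 0.925), and so did the adhesion gene Icam1 (0.07, adjusted p = 0.829). The prostaglandin synthase gene Ptgs2 rose from 7.99, 9.09 and 6.75 to 10.41, 11.94 and 11.30 (3.27 ± 0.74, adjusted p = 0.0322), and the prostaglandin receptor gene Ptger4 rose by 1.14. Both were lost without VILI replicate 2 (adjusted p = 0.13 and 0.0748), Ptgs2 also without SB replicate 1, SB replicate 3, VILI replicate 3 or wild type VILI replicate 2 (up to 0.0862). They were the only calls among 18 prostaglandin and leukotriene genes, whose median was -0.18. Complement and acute phase genes gave 0 calls of 17.

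Neutrophil genes formed the list with the largest share of calls among the 51 lists, 13 of 30 tested members (43.3%, against 4.47% over all genes). All were higher, and the median change of the list was 1.26. Of 45 listed members 30 were tested, and the filter admits genes that are high in VILI alone. The lists were also chosen with earlier results known, so this rank is a description. S100a8 and S100a9, the subunits of calprotectin and among the most abundant neutrophil transcripts, were bright in every lung. S100a8 read 12.02, 11.44 and 11.23 in SB and 13.91, 14.49 and 13.87 in VILI, and S100a9 read 11.004, 10.61 and 10.15 in SB and 13.20, 13.96 and 13.07 in VILI. All VILI arrays exceeded all SB arrays by over 1 log2 unit, the rises being 2.52 ± 0.25 and 2.82 ± 0.29 (both adjusted p = 0.00158). Mmp8, the neutrophil collagenase, rose from 4.67, 3.71 and 3.71 to 7.90, 10.72 and 8.16 (4.90 ± 0.73, adjusted p = 0.00845), its SB mean lying under the array median, where a fold is approximate. The C-type lectin receptor genes Clec4e, its SB mean also under the array median, and Clec4d rose by 4.17 and 3.31. The stefin gene Stfa2l1 rose by 3.29 and the Schlafen gene Slfn4 by 3.16. With Cxcr2, these 8 genes passed the threshold in each of the 12 fits. Csf3r, the receptor for granulocyte colony-stimulating factor (1.98), Il1r2, Mmp9 (1.33), Itgam (1.67) and Slfn2 (1.19) were lost without VILI replicate 2 (adjusted p = 0.0561 to 0.13), 4 of them also without SB replicate 2 and 4 without SB replicate 3. Averaged over the 30 tested genes, the list stood at 7.40, 7.10 and 7.21 in SB and at 8.48, 9.59 and 9.01 in VILI. Replicate 2 was the highest VILI array and replicate 1 the lowest, and without both arrays numbered 3 the list had 7 calls. The granule protein gene Ngp read 4.40, 4.33 and 3.94 in SB and 4.36, 6.27 and 4.96 in VILI, overlapping (0.97, adjusted p = 0.176).

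Other leukocyte lists gave 0 calls, namely macrophage and monocyte genes (27 tested, median -0.01), T and natural killer cell genes (15 tested, 0.06) and B cell genes (20 tested, 0.29). Chil3, a chitinase-like protein of alveolar macrophages, was bright in every lung, at 13.41, 13.23 and 12.74 in SB and 12.15, 13.52 and 12.37 in VILI, with overlap (adjusted p = 0.455). Il17ra, the receptor subunit for interleukin 17, rose evenly from 8.24, 8.01 and 8.77 to 9.64, 10.11 and 10.17 (1.63 ± 0.19, adjusted p = 0.00349) and held in each of the 12 fits. Among interferon-stimulated genes, Ifit1 was the only call of 29 (3.45%, against 4.47% over all genes). It rose by 1.24 ± 0.24 (adjusted p = 0.0204) and was lost without SB replicate 1, VILI replicate 2 or VILI replicate 3 (up to 0.0878).

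**Figure D2:**
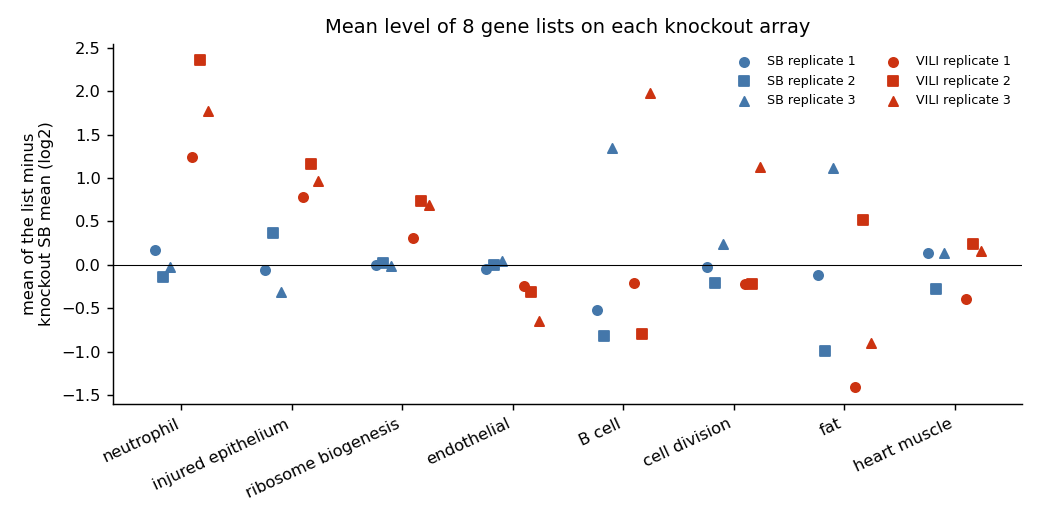
Mean log2 level of 8 gene lists on each knockout array, drawn relative to the mean of the 3 SB arrays (vertical axis, log2), with SB in blue, VILI in red and a marker shape per replicate number. Neutrophil, injured epithelium and ribosome biogenesis lists are above every SB array on all 3 VILI arrays and the endothelial list is below, while the B cell list is highest on both arrays numbered 3.

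Immediate-early and growth transcription factor genes rose in part, 7 of 41 tested being higher and 2 lower, with a median of 0.48. Myc, a driver of growth and ribosome production, read 5.57, 5.65 and 5.67 in SB and 7.23, 8.72 and 8.03 in VILI (2.36 ± 0.37, adjusted p = 0.0108), and Mxd1, a partner-competing antagonist of Myc, went from 8.49, 8.20 and 8.26 to 9.18, 10.03 and 9.76 (1.34 ± 0.21, adjusted p = 0.0108). Both were separated from SB in all lungs and held in each of the 12 fits. The AP-1 subunit gene Fosl1 rose by 3.40 ± 0.76, from an SB mean under the array median, where a fold is approximate. The zinc finger genes Egr1, Egr2 and Egr3 rose by 2.81, 2.08 and 3.19, Egr3 also from under that median, and Id2 by 0.47. These 5 were each lost without VILI replicate 2 (adjusted p = 0.102 to 0.18), and 5 calls each were lost without SB replicate 1, SB replicate 3 and VILI replicate 3 (up to 0.129). Without both arrays numbered 3 the list had 0 higher calls. Fos itself was already high in SB replicate 2, reading 10.67, 12.50 and 10.45 in SB and 11.42, 12.89 and 12.85 in VILI, and its overlapping groups did not pass (1.18, adjusted p = 0.299). Atf3, a stress-induced factor, was separated, at 6.40, 8.30 and 6.51 against 9.13, 9.74 and 9.21, and did not pass (2.29 ± 0.77, adjusted p = 0.114). Hbegf, a growth factor that binds the EGF receptor, was the only call of 10 EGF family genes, rising from 9.08, 9.24 and 8.84 to 10.70, 10.81 and 10.21 (1.52 ± 0.18, adjusted p = 0.00355), and it held in each of the 12 fits.

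Antioxidant genes controlled by Nrf2, a transcription factor of the response to electrophiles and oxidants, were higher for 9 of 42 tested members (21.4%). None was lower, and the median was 0.17. Slc7a11, the cystine importer that feeds glutathione synthesis, read 3.88, 4.40 and 4.83 in SB and 6.66, 8.80 and 7.97 in VILI, a rise of 3.44 ± 0.47 (adjusted p = 0.00596). Its SB mean lay under the array median, where a fold is approximate. Gclc, the catalytic subunit of the rate-limiting enzyme of glutathione synthesis, went from 12.84, 13.14 and 12.52 to 13.91, 14.26 and 14.22 (1.30 ± 0.18, adjusted p = 0.00596), and glutathione reductase, Gsr, from 8.28, 8.56 and 8.28 to 9.39, 9.70 and 9.23 (1.07 ± 0.16, adjusted p = 0.00788). These 3 genes were separated in all lungs and held in each of the 12 fits. Srxn1, sulfiredoxin, which repairs overoxidised peroxiredoxins, read 8.63, 8.94 and 7.98 in SB and 10.03, 12.00 and 11.05 in VILI (2.50 ± 0.47, adjusted p = 0.0174). Heme oxygenase, Hmox1, rose by 2.81, with VILI replicate 1 at 8.83 well under replicates 2 and 3 at 11.74 and 10.76. Gclm, the modifier subunit beside Gclc, rose by 1.002, Txnrd1 by 1.15, Gpx2 by 1.03 and the pentose phosphate enzyme gene Pgd by 0.68. Those 6 were lost without VILI replicate 2 (adjusted p = 0.0626 to 0.116) and 4 calls were lost without SB replicate 1 (up to 0.0809). Without both arrays numbered 3 the list had 4 calls. Nqo1, a standard Nrf2 target, read 5.50, 6.05 and 4.38 in SB and 6.51, 6.05 and 6.31 in VILI and did not pass (0.98, adjusted p = 0.13).

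The promoter of Srxn1 is shown for its AP-1-like letters, a core that also lies within many antioxidant elements. Capitals mark TGANTCA on either strand in the 250 bases before the start (RefSeq, GRCm38.p6, chr2:152105274-152105523, plus strand).
Srxn1: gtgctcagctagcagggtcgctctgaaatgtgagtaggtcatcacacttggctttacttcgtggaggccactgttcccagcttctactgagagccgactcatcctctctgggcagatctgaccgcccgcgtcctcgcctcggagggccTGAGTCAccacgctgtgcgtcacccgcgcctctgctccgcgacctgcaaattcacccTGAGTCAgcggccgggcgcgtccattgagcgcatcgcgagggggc
It holds 2 matches, and 111 windows (0.338%) hold at least as many. At least 1 match was in 6.75% of all windows. By gene it was in 497 of 8907 tested genes (5.58%), 22 of 246 higher genes (8.94%) and 5 of 143 lower genes (3.5%). The pattern reads the same on both strands.

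Metallothioneins, small proteins that bind zinc and scavenge oxidants, rose together. Mt1 read 11.07, 11.61 and 10.74 in SB and 12.93, 13.69 and 13.05 in VILI (2.08 ± 0.31, adjusted p = 0.00799). Mt2 read 10.55, 11.11 and 9.99 in SB and 12.76, 13.30 and 12.88 in VILI (2.43 ± 0.33, adjusted p = 0.00596). Neither gene had overlapping groups, and both held in each of the 12 fits. The zinc importer Slc39a14 rose by 1.32 ± 0.22 (adjusted p = 0.012) and was lost without VILI replicate 2 (adjusted p = 0.0586). These were the 3 calls among 13 tested metallothionein and zinc transport genes, whose median was 0.20. Without both arrays numbered 3 the list had 2 calls. The window of Mt2 is shown because it is dense in a loosened form of the metal response element core. Capitals mark TGCNCNC on either strand in the 250 bases before the start (RefSeq, GRCm38.p6, chr8:94172368-94172617, plus strand). N is any base, so a marked stretch need not be a core of the element.
Mt2: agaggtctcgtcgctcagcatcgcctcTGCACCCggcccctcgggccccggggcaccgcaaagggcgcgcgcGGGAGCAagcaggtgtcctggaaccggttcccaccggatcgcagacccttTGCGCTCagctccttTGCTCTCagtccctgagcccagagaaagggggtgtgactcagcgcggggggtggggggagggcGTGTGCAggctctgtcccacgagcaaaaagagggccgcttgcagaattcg
It holds 5 matches, and 113 windows (0.344%) hold at least as many, while 44.4% of all windows hold at least 1. By gene it was in 5096 of 8907 tested genes (57.2%), 122 of 246 higher genes (49.6%) and 89 of 143 lower genes (62.2%).

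Glucose importers rose evenly. Slc2a3, the high-affinity importer of leukocytes and neurons, read 6.68, 7.04 and 7.15 in SB and 8.91, 9.68 and 9.29 in VILI, a rise of 2.34 ± 0.21, and it had the smallest adjusted p of the comparison together with Cxcl1 (0.00155). Slc2a1, the widespread importer, went from 9.37, 9.34 and 8.88 to 10.08, 11.08 and 10.65 (1.41 ± 0.23, adjusted p = 0.0108). Txnip, an inhibitor of glucose uptake, moved the other way, from 14.25, 14.33 and 13.88 to 13.41, 13.18 and 13.27 (-0.87 ± 0.12, adjusted p = 0.00596). The groups of these 3 genes did not overlap, and all 3 held in each of the 12 fits. Without both arrays numbered 3, Slc2a1 did not pass (adjusted p = 0.0679). The importers were the only calls of 27 hypoxia and glycolysis genes (7.41%, against 4.47% over all genes). The list had 1 call without both arrays numbered 3. Hk2 (0.64, adjusted p = 0.106) and Ldha (0.16, adjusted p = 0.313) did not pass.

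Serine, one-carbon and transfer RNA charging genes, which Atf4 controls, accounted for the 5 calls among 40 amino acid and unfolded protein stress genes, all higher (12.5%, list median 0.14). Mthfd2, the mitochondrial folate enzyme gene, read 5.54, 5.72 and 5.55 in SB and 7.09, 8.17 and 8.51 in VILI (2.32 ± 0.49, adjusted p = 0.0249). Psat1, for serine synthesis, went from 7.08, 6.77 and 6.84 to 7.84, 9.38 and 9.08 (1.87 ± 0.31, adjusted p = 0.012). Asns, for asparagine synthesis, rose by 0.80, and the aminoacyl transfer RNA synthetase genes Aars and Gars rose by 0.59 and 0.61. The list had 0 calls without VILI replicate 2 (adjusted p = 0.0509 to 0.177) and 0 without both arrays numbered 3. Hspa5, the endoplasmic reticulum chaperone that rises in unfolded protein stress, read 13.64, 13.50 and 13.99 against 13.61, 13.82 and 13.70 (0.00, adjusted p = 0.996), and the death-linked factor gene Ddit3 did not pass either (-0.23, adjusted p = 0.582).

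Genes that build ribosomes rose in small, even steps, 10 of 31 tested members being higher (32.3%) and none lower, with a median of 0.58. Tsr1, for assembly of the small subunit, read 8.38, 8.39 and 8.26 in SB and 9.17, 9.72 and 9.53 in VILI (1.13 ± 0.15, adjusted p = 0.00596). Odc1, the rate-limiting enzyme of polyamine synthesis, went from 11.76, 11.72 and 11.49 to 12.31, 12.52 and 12.74 (0.87 ± 0.13, adjusted p = 0.00853). Both held in each of the 12 fits. Rrp12 and Nop58, for processing and modification of ribosomal RNA, rose by 1.34 and 1.19, Gtpbp4 by 0.95, Heatr1 by 0.88, Nop56 by 0.79, Utp20 by 0.77, Nolc1 by 0.73 and nucleolin, Ncl, by 0.42. These 8 were lost without VILI replicate 2 (adjusted p = 0.0622 to 0.162), 7 calls were lost without VILI replicate 3 and 5 each without SB replicates 1 and 2, and without both arrays numbered 3 the list had 1 call. The nucleolar protein genes Npm1 (0.23, adjusted p = 0.276) and Fbl (0.33, adjusted p = 0.321) overlapped between groups. The list mean was 8.41, 8.43 and 8.40 on the SB arrays and 8.72, 9.15 and 9.11 on the VILI arrays.

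Keratins and other genes of injured epithelium rose for 7 of 18 tested members (38.9%), with none lower and a median of 0.69. The paired keratins of simple epithelium moved alike. Krt8 read 10.89, 11.20 and 10.90 in SB and 12.41, 12.88 and 12.59 in VILI (1.63 ± 0.20, adjusted p = 0.00355), and Krt18 read 11.29, 11.49 and 10.90 in SB and 12.43, 12.77 and 12.63 in VILI (1.38 ± 0.21, adjusted p = 0.00967). Sfn, an epithelial cell cycle brake of the 14-3-3 family, went from 4.43, 4.94 and 5.51 to 7.46, 9.10 and 8.62 (3.43 ± 0.45, adjusted p = 0.00586). No lung of one group reached the other in these 3 genes, which held in each of the 12 fits. Cldn4, a claudin that tightens the alveolar barrier after injury, rose from 2.40, 3.32 and 2.36 to 5.10, 7.62 and 7.74 (4.12 ± 0.92, adjusted p = 0.0306). The SB mean of Cldn4 lay under the array median, where a fold is approximate. Krt19 rose by 1.29, the stress protein gene Nupr1 by 1.002 and annexin A1, Anxa1, by 0.62. Those 4 were lost without VILI replicate 2 (adjusted p = 0.0586 to 0.124), 3 without VILI replicate 3, 2 without SB replicate 1 and 1 each without SB replicate 2, SB replicate 3 and wild type VILI replicate 2. Without both arrays numbered 3 the list had 2 calls. The chloride channel gene Cftr, which moves fluid across the airway lining, rose from 6.38, 6.51 and 6.27 to 7.71, 8.40 and 7.86 (1.60 ± 0.27, adjusted p = 0.0124, and 0.0586 without VILI replicate 2). The matrix glycoprotein Tnc, a marker of wounded tissue, rose by 1.61 ± 0.28 (adjusted p = 0.014). It held in each of the 12 fits, and was lost without both arrays numbered 3 (adjusted p = 0.0812). Tissue factor, F3, which starts coagulation, rose by 1.45 ± 0.30 (adjusted p = 0.0237) and was lost without SB replicate 1, SB replicate 3, VILI replicate 2 or VILI replicate 3 (up to 0.102).

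**Figure D3:**
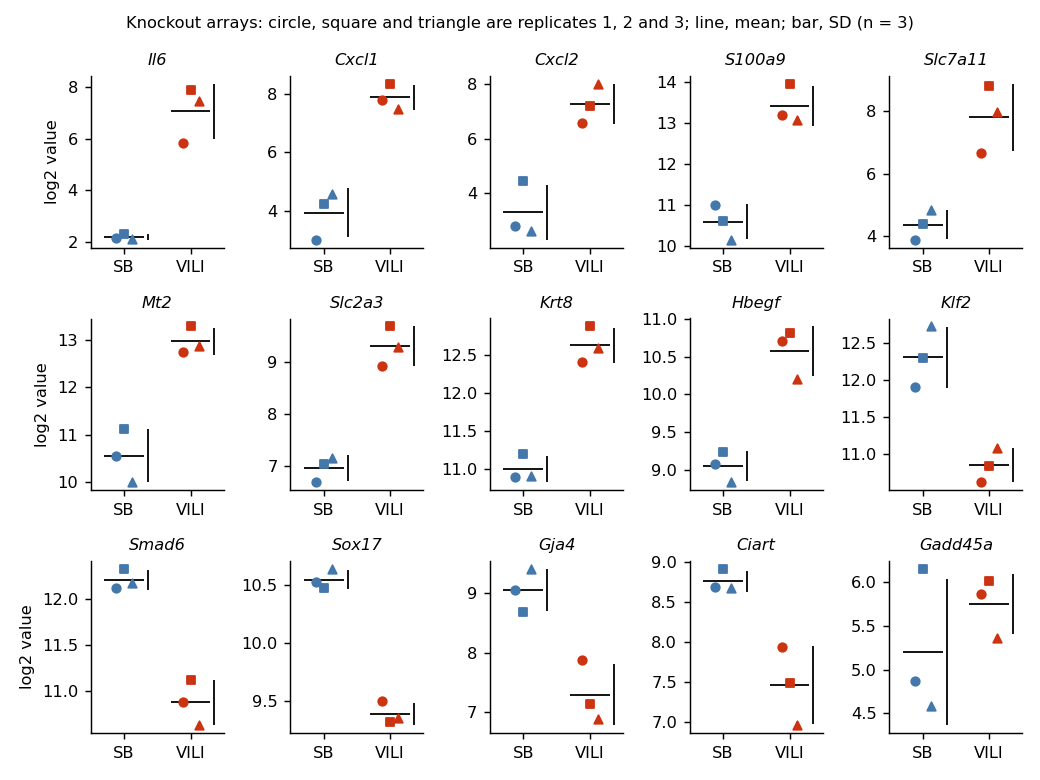
Log2 values of 15 genes on each of the 6 knockout arrays (vertical axes, each with its own range), with SB in blue, VILI in red, the horizontal line for the mean and the bar for the SD (n = 3). The groups do not overlap for 14 of the genes, which were picked from the calls, where no gene overlaps. Over all genes tested, 12.9% lay wholly above and 10.6% wholly below SB. Il6 in SB lies between 2.11 and 2.33 and Sox17 in VILI between 9.31 and 9.50. The groups of Gadd45a, which was not called, overlap.

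Capillary and arterial genes formed the largest group that fell. In the endothelial list 11 of 53 tested members were lower (20.8%) and none higher, with a median of -0.28. The list was drawn up with the falls of some members in these data known, Anpep, Hspa12b, Tek, Eng, Sox17 and Calcrl among them, so its share is a description. Sox17, a transcription factor of arterial endothelium, read 10.53, 10.48 and 10.64 in SB and 9.50, 9.31 and 9.35 in VILI. The SB and VILI arrays each lay within a narrow band, and the fall was -1.16 ± 0.12 (adjusted p = 0.00158). Endoglin, Eng, a co-receptor for BMP ligands on endothelium, went from 11.34, 11.43 and 11.73 to 10.78, 10.65 and 10.24 (-0.94 ± 0.16, adjusted p = 0.012). Sox17 and Eng held in each of the 12 fits. Hspa12b, an endothelial chaperone relative, went from 8.49, 7.76 and 9.17 to 7.08, 6.45 and 5.92 (-1.99 ± 0.40, adjusted p = 0.0215), and the aminopeptidase gene Anpep had the largest called fall, from 6.23, 6.52 and 7.75 to 5.87, 3.86 and 4.16 (-2.20 ± 0.50, adjusted p = 0.0326).

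The angiopoietin receptor gene Tek fell by 0.97, the BMP receptor gene Acvrl1 by 1.09, Gata2 by 0.94, Clec14a by 0.90, Calcrl, a receptor for adrenomedullin, by 0.82, thrombomodulin, Thbd, by 0.60 and Egfl7 by 0.42. Calcrl and Egfl7 each have another probe set of opposite sign that was not used. With Hspa12b and Anpep these 9 endothelial calls were lost without VILI replicate 2 (adjusted p = 0.0568 to 0.132). The number lost was also 9 without SB replicate 1, and 7 each without SB replicate 3 and VILI replicate 3. The list had 2 calls without both arrays numbered 3. Its mean was 10.88, 10.93 and 10.98 in SB and 10.68, 10.61 and 10.29 in VILI, the lowest being replicate 3, the array with the highest B cell and cell division lists. Several defining endothelial genes did not pass. Pecam1 read 12.43, 12.53 and 12.53 against 12.25, 12.22 and 11.89 (-0.38, adjusted p = 0.0587), Cdh5 overlapped (-0.20, adjusted p = 0.639), and Vwf overlapped (-0.07, adjusted p = 0.751).

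Within the SoxF, Notch, BMP and arterial list, 8 of 38 tested members were lower and 1 was higher, with a median of -0.24. Smad6, an inhibitory Smad that BMP signalling and blood flow induce in endothelium, read 12.12, 12.32 and 12.17 in SB and 10.89, 11.12 and 10.64 in VILI (-1.32 ± 0.14, adjusted p = 0.00158). Gja4, a gap junction protein of arterial endothelium, went from 9.06, 8.69 and 9.40 to 7.88, 7.13 and 6.89 (-1.75 ± 0.26, adjusted p = 0.00788). Klf2, a flow-responsive endothelial factor held in another list, went from 11.91, 12.30 and 12.73 to 10.61, 10.83 and 11.08 (-1.47 ± 0.23, adjusted p = 0.0108). The 3 genes had no overlap between groups and, with Sox17 and Eng, held in each of the 12 fits. Ephb4, a venous marker, fell by 1.43, Smad7 by 0.53 and the BMP target Id1 by 1.02. With Acvrl1 these were lost without VILI replicate 2 (adjusted p = 0.0568 to 0.102), 3 calls each being lost without SB replicate 1, SB replicate 2 and VILI replicate 3 and 2 each without SB replicate 3 and VILI replicate 1. The list had 4 lower calls without both arrays numbered 3. Id2 was the call in the other direction. Bmpr2, the main BMP type II receptor of lung vessels, read 14.02, 14.10 and 13.93 against 13.88, 13.54 and 13.57 and was just short of the threshold (-0.35, adjusted p = 0.0542), and Notch1 did not move past it (-0.06, adjusted p = 0.82). Among 33 VEGF, angiopoietin and vasoactive genes, Vegfc, Tek and Calcrl fell and none rose. Vegfc, a lymphatic growth factor, was tight within groups, at 10.43, 10.34 and 10.31 against 9.49, 9.43 and 9.50 (-0.89 ± 0.15, adjusted p = 0.012), and was lost without VILI replicate 2 (adjusted p = 0.0567). Edn1, the vasoconstrictor endothelin, was separated but short of the threshold (-1.03 ± 0.27, adjusted p = 0.0579).

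**Figure D4:**
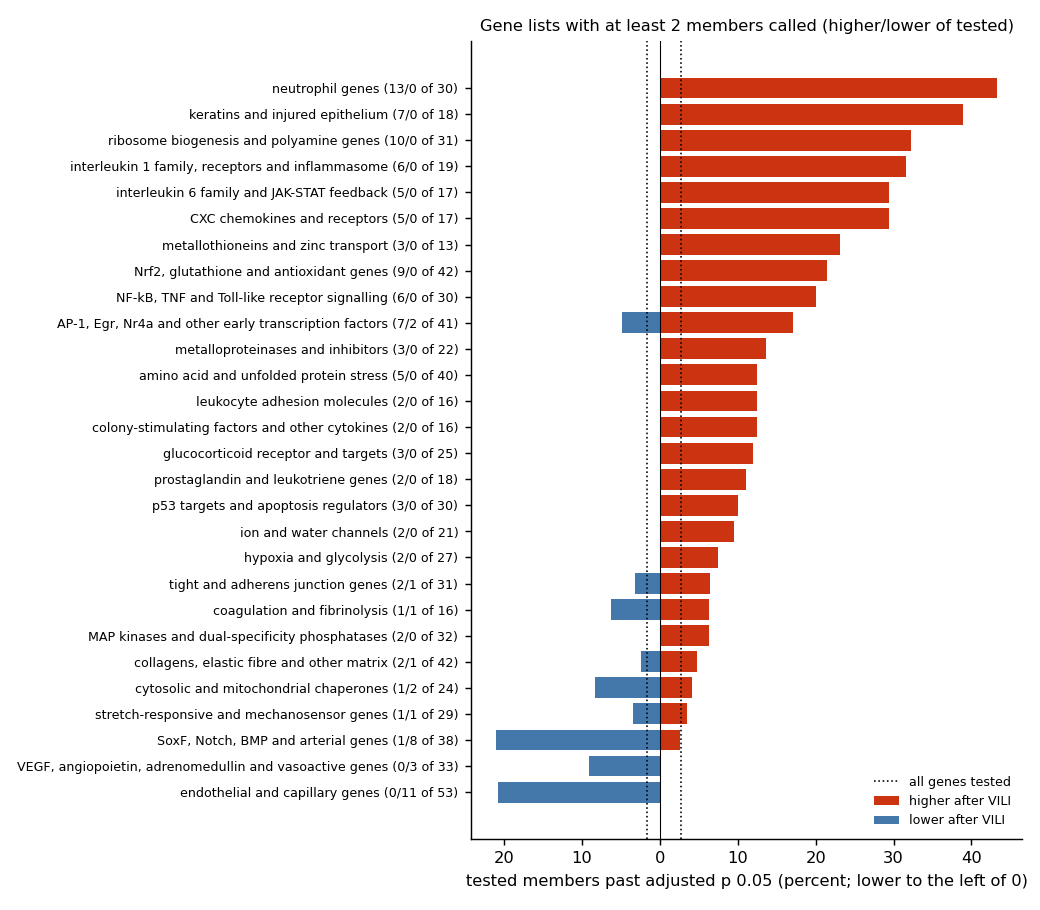
Percent of tested members past adjusted p 0.05 (horizontal axis, higher to the right in red and lower to the left in blue) for the gene lists with at least 2 calls, with counts of higher, lower and tested members beside each name and dotted lines at 2.76% and 1.7% for all genes. Neutrophil genes reach 43.3% on the higher side, and the endothelial and SoxF lists are the longest bars on the lower side.

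For the alveolar and airway cell types, shares of called members stand beside 4.47% over all genes tested. They were 4.35% for type II, 4.35% for type I, 4.17% for club cell and 2.94% for motile cilia genes. One member each was called among 23 type II cell genes (Slc6a14, an amino acid importer, 0.78 ± 0.18), 23 type I cell genes (Rtkn2, -1.14 ± 0.20), 24 club cell genes (Cyp2f2, -0.37 ± 0.09) and 34 motile cilia genes (Akap14, -1.89 ± 0.29), with list medians from -0.24 to -0.20. Akap14, an anchoring protein of the ciliary axoneme, read 5.77, 5.07 and 5.22 in SB and 3.91, 2.96 and 3.54 in VILI, where it lay under the array median (adjusted p = 0.00974), and it alone of the 4 held in each of the 12 fits. Rtkn2 was lost without VILI replicate 2 (adjusted p = 0.0689), and Slc6a14 and Cyp2f2 without most of the arrays (up to 0.12 and 0.135). Sftpc was lower on all 3 VILI arrays, at 15.30, 15.21 and 15.12 against 15.36, 15.55 and 15.47, and just missed the threshold (-0.25 ± 0.06, adjusted p = 0.0519). Smooth muscle, cardiac and skeletal muscle, and fat lists gave 0 calls.

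Of 21 clock genes 1 was called (4.76%), a share near the 4.47% over all genes. This single call was Ciart, a repressor of the circadian clock. It read 8.69, 8.91 and 8.67 in SB and 7.94, 7.48 and 6.96 in VILI, a fall of -1.29 ± 0.21 without overlap (adjusted p = 0.0108), and held in each of the 12 fits. Dbp, an output gene of the clock, went from 11.80, 10.78 and 11.44 to 10.38, 9.95 and 9.92, also without overlap, but did not pass (-1.26 ± 0.37, adjusted p = 0.077). The sources used here give no hour of sampling. The promoter window of Ciart is shown for its E-boxes, the letters that the clock activators bind. Capitals mark CACGTG, a palindrome, in the 250 bases before the start (RefSeq, GRCm38.p6, chr3:95882229-95882478, minus strand).
Ciart: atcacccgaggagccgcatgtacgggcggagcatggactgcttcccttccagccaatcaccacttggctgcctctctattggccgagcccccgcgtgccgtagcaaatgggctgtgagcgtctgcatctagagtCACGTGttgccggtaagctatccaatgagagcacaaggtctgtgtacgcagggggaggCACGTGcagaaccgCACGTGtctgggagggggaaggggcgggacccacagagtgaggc
It holds 3 matches, and 20 windows (0.0609%) hold at least as many. At least 1 match was in 6.02% of all windows. By gene it was in 880 of 8907 tested genes (9.88%), 25 of 246 higher genes (10.2%) and 18 of 143 lower genes (12.6%).

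For the pathways nearest to the study's title, shares of called members stand beside 4.47% over all genes tested. They were 0% for Gadd45 and partners, 2.33% for PI3K, Akt and mTOR, and 8.33% for ubiquitin enzymes acting on Akt. For MAP kinases and phosphatases the share was 6.25%, and for p53 targets and apoptosis regulators 10%. The Gadd45 family and its partners gave 0 of 10. Gadd45b read 9.91, 9.54 and 10.20 in SB and 10.57, 10.38 and 9.73 in VILI (0.34 ± 0.21, adjusted p = 0.366), and Gadd45g read 10.08, 10.22 and 9.47 in SB and 11.03, 10.76 and 10.06 in VILI (0.69 ± 0.26, adjusted p = 0.147), both with overlap. Among 43 PI3K, Akt and mTOR genes, Pik3r5, the regulatory subunit of the leukocyte PI3K gamma, was the only call (1.36 ± 0.33, adjusted p = 0.0429). It was lost without SB replicates 1 or 2, VILI replicates 2 or 3, wild type SB replicate 2 or any wild type VILI array (up to 0.139). Akt1 overlapped (-0.08, adjusted p = 0.81). Of 12 ubiquitin enzymes that act on Akt, Nedd4 fell, from 12.02, 11.90 and 11.90 to 11.60, 11.33 and 11.30 (-0.53 ± 0.10, adjusted p = 0.0191), a call lost without SB replicate 1, VILI replicate 2 or VILI replicate 3 (up to 0.0869). Of 32 MAP kinase and phosphatase genes, Map2k4, a kinase upstream of JNK, and the inhibitor Spry4 rose by 0.48 and 1.81, and both were lost without VILI replicate 2 (adjusted p = 0.107 and 0.132), SB replicate 1 or VILI replicate 3. Of 30 p53 targets and apoptosis regulators, Plk2, Aen and Btg1 rose by 1.30, 1.08 and 0.63, and none of the 3 passed without VILI replicate 2 (0.078 to 0.113) or without SB replicate 1 (up to 0.0975). Cdkn1a, the classical p53 target, overlapped between groups (0.39, adjusted p = 0.702). Cdkn2c, an inhibitor of the cell cycle kinases, fell from 8.25, 8.40 and 7.81 to 7.10, 6.73 and 7.06 (-1.19 ± 0.17, adjusted p = 0.00596) and held in each of the 12 fits.

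Some of the strongest falls belonged to no list that had many calls. Tcim, a small regulator of Wnt signalling that is bright in lung, read 12.76, 12.28 and 12.19 in SB and 11.09, 10.97 and 10.51 in VILI (-1.55 ± 0.19, adjusted p = 0.00355). Dixdc1, a Wnt pathway protein, fell by 1.37, Adi1, of the methionine salvage pathway, by 0.85, and Hspa12a, the sister gene of Hspa12b, by 0.95, each at an adjusted p of 0.00596. N4bp3 had SB values of 8.13, 8.14 and 8.16 and VILI values of 6.66, 6.42 and 6.30 (-1.69 ± 0.26, adjusted p = 0.0102). Lrrc75a fell by 1.37. The groups of these 6 genes did not overlap, and all 6 held in each of the 12 fits. Without both arrays numbered 3, N4bp3 and Lrrc75a did not pass (adjusted p = 0.0625 and 0.0511). Nrn1, neuritin, read 8.19, 8.30 and 7.65 in SB and 6.87, 6.71 and 5.87 in VILI (-1.56 ± 0.28, adjusted p = 0.0142), and was lost only without SB replicate 1 (adjusted p = 0.0518). Glis2, a zinc finger factor, fell by 1.47, Kank4 by 1.80, Wscd1 by 1.66, Cckar, the cholecystokinin receptor, by 1.59, Bbof1, a protein of ciliary basal bodies, by 1.44 and the transcript 2810410L24Rik by 1.92. These 6 were lost without VILI replicate 2 (adjusted p = 0.061 for Glis2 to 0.16 for Kank4), and all but Glis2 also without SB replicate 1 and VILI replicate 3. Krtap17-1, annotated as a keratin-associated protein, rose by 3.42 ± 0.73 and was lost without VILI replicate 2 (adjusted p = 0.108), VILI replicate 3 or any SB array.

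The knockout response was compared with that of wild type lungs by the difference of the 2 responses. By limma 0 of 10996 genes (0%) passed for this difference, and 288 (2.62%) had an unadjusted p under 0.05, so nothing above is called particular to the knockout. In wild type lungs 290 genes (2.64%) passed for VILI against SB. Both lists held 164 genes, all with the same sign, which is 33.4% of the knockout calls and 56.6% of the wild type calls. Of the 304 genes higher in knockout lungs, 298 had a positive change in wild type, with medians of 0.91 in knockout and 0.64 in wild type. Of the 187 lower genes, 186 had a negative change in wild type, with medians of -0.83 and -0.59. The genes were chosen by their knockout change, so these medians are a description.

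Several responses were of similar size in the 2 genotypes. Mmp8 changed by 4.90 in knockout and 4.91 in wild type, Smad6 by -1.32 and -1.67, Sox17 by -1.16 and -1.15, Klf2 by -1.47 and -1.49, Mt2 by 2.43 and 2.13 and Slc2a3 by 2.34 and 2.04. Others lay farther apart without passing the test of the difference. Il6 changed by 4.86 in knockout and 2.43 in wild type, Cxcl1 by 3.94 and 1.57, Hbegf by 1.52 and 0.63 and Gclm by 1.002 and -0.04. Nrn1 changed by -1.56 and -0.11.

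**Figure D5:**
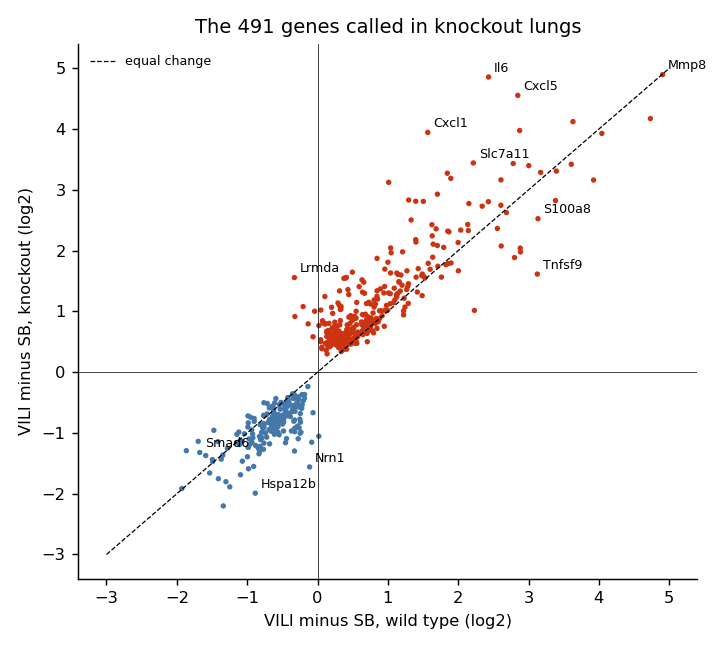
Log2 change of VILI minus SB in knockout lungs (vertical axis) against the same change in wild type lungs (horizontal axis) for the 491 genes called in knockout lungs, with the dashed line for equal change. Of these, 298 higher and 186 lower genes share the sign in wild type, and Il6 (4.86 and 2.43) and Cxcl1 (3.94 and 1.57) lie well above the line.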

How the data were processed

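The deposited table holds the authors' log2 expression values for 12 Affymetrix arrays. MAS5 and GCRMA appear in the submitters' processing notes, with neither a role nor a version. Of 45101 probe sets, 64 controls were removed, and 23082 of the rest were kept for lying above the array's median on at least 3 of 12 arrays. Probe sets were named by the platform annotation: 34945 had 1 gene symbol, 932 several and 9160 none, and 34741 matched a RefSeq gene. Each of the 10996 genes was represented by its kept probe set of highest mean. No further normalization was applied.

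Group means were fitted to all 12 arrays with limma 3.58.1 in R 4.3.3 (lmFit, eBayes with a mean-dependent prior, 8 residual degrees of freedom), and p-values were adjusted by Benjamini-Hochberg over all genes, with a threshold of 0.05. The difference between genotypes was the interaction contrast. SE is the model's standard error. The fit was tested on simulated data.

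Named genes were Gadd45a, the 15 largest rises and 15 largest falls among calls without overlap, the 10 smallest adjusted p in each direction, up to 12 called members of each of 51 gene lists, and uncalled textbook members given by values. The members and lists were chosen with earlier results of these data known. Alternatives covered the arrays fitted, scaling, filters, probe set choice, array weights, a replicate block and leaving out arrays. Array precision is limited by 3 samples a group.

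Deviations from the group means of same-numbered SB and VILI knockout arrays correlated at r of 0.047, 0.211 and 0.426. Those of differently numbered arrays correlated at -0.343 to 0.247. The labels state no pairing, so none was used. Whether the replicate numbers mark something shared was not tested.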

Additional observations from a re-analysis of the deposited data

How the results depend on the processing

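The 491 calls for VILI against SB in knockout lungs rest on the spread estimated over 12 arrays and 8 residual degrees of freedom. A fit of only the 6 knockout arrays gave 11 calls, no filter on low signal gave 306, array quality weights gave 872, and leaving out both knockout arrays numbered 3 gave 110. Leaving out 1 array at a time gave 69 to 713 calls. Centring the arrays moved the share of higher calls from 61.9% to 51.9% (200 higher and 185 lower) and quantile normalization to 51.3% (271 higher and 257 lower). No alternative gave a call for the difference between genotypes. With replicate number as a block 667 genes were called, 462 of them among the 491. Same-numbered knockout arrays deviated together at r of 0.047, 0.211 and 0.426, and differently numbered ones at -0.343 to 0.247. The labels state no pairing, so the main fit did not treat the numbers as pairs.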

Other observations

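Some called genes outside the lists were picked after their values were seen, so they are given as single genes and describe no group. The ribosome assembly factor genes Nifk, Gar1 and Ltv1 rose by 0.85, 0.76 and 0.69. The amino acid importer gene Slc7a1 rose by 1.37, Slc7a5 by 1.55 and Slc7a6 by 0.78, as did Cth, which makes cysteine, by 1.12. The mitochondrial ribosome gene Mrpl33 rose by 0.52, the Schlafen gene Slfn8 by 2.81, Ifi204 by 2.31 and Sting1, an adaptor of DNA sensing, by 1.15. Of genes with ciliary roles, Dnaaf1 fell by 1.02 and Cc2d2a by 0.92.

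Among called genes whose wild type change had the other sign, Lrmda read 3.36, 4.25 and 3.39 in knockout SB and 5.30, 5.40 and 4.98 in knockout VILI, a change of 1.56 against -0.33 in wild type. Ap2b1, an adaptor of clathrin coats, changed by 0.92 against -0.32, and the DNA ligase gene Lig4 by 1.08 against -0.20. None passed the limma test of the difference between genotypes. Of 28 genes looked at in this way, 1 (Slfn8) stayed past the threshold in each of the 12 fits that left out 1 array. Without both knockout arrays numbered 3, Slfn8 did not pass (adjusted p = 0.0576). Without knockout VILI replicate 2 the adjusted p of the others reached 0.172 for Slc7a6.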
